A study of Mus musculus with 18 samples.

Results

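Glucose transport and glycolysis were followed through 10 genes taken by name from the deposited tables. They encode the glucose carriers Slc2a1 (GLUT1) and Slc2a4 (GLUT4), the hexokinases Hk1 and Hk2, the glycolytic enzymes Pfkm, Aldoa, Gapdh and Pgk1, and the lactate dehydrogenase subunits Ldha and Ldhb. All 10 were present among the 23457 genes of the count table and in the FPKM table, and all 10 were among the 12281 genes with enough counts to be tested. The 18 hearts came from male C57BL/6 mice examined at 17 weeks of age, 6 in each of 3 groups that had received rAAV6-blank, rAAV6-PLCb1a or rAAV6-PLCb1b, hereafter blank, PLCβ1a and PLCβ1b. Every mouse had thus been injected with an adeno-associated virus of serotype 6 as an adult, and the blank vector carries a promoter without a protein product. PLCβ1b and PLCβ1a are splice variants of phospholipase Cβ1, and the study overexpressed PLCβ1b as a model of low contractile function and PLCβ1a as its inactive relative. The labels name both ventricles as the tissue, whereas the methods name the left ventricle. Whole ventricle holds many cell types, so fewer cells of a type and less RNA per cell cannot be told apart in these values.

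Glucose enters heart muscle cells through GLUT1, which sits in the surface membrane at all times, and GLUT4, which moves there in response to insulin and contraction. Hexokinases trap it as glucose 6-phosphate, phosphofructokinase commits it to glycolysis, and aldolase, glyceraldehyde-3-phosphate dehydrogenase and phosphoglycerate kinase carry it towards pyruvate, which lactate dehydrogenase exchanges with lactate. The foetal heart relies on glucose and lactate and the adult heart mostly on fatty acids, and a return towards GLUT1, HK1 and LDHA at the expense of GLUT4, HK2 and LDHB is a textbook feature of the failing or hypertrophied heart. The comparison asks whether these transcripts differed with the vector.

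The genes differ in how much of their sequence they share with other genes, which bears on how reads can be assigned to them. For each gene the longest coding transcript of the GENCODE M21 annotation (GRCm38, the assembly also called mm10) that is paired with one of the deposited gene model's RefSeq transcripts was cut into every stretch of 75 bases. Each stretch was looked for in the transcripts of all other genes, allowing at most 2 mismatches. The following 75-base stretches of coding sequence, written 5′ to 3′ without capitals because the whole stretch matters, show the range. The stretch of Gapdh (bases 415 to 489 of the coding sequence) occurred unchanged in 49 other genes and within 2 mismatches in 100 genes, that of Pgk1 (bases 808 to 882) unchanged in 3 and within 2 mismatches in 4, and that of Ldhb (bases 183 to 257) in 1. Those of Slc2a4 and Hk2 (bases 1 to 75) occurred in 0 other genes.
Gapdh: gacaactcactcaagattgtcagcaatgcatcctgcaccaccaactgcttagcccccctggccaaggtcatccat
Pgk1: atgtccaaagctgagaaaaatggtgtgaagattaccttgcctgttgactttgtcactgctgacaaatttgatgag
Ldhb: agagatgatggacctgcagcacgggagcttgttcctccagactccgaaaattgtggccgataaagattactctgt
Slc2a4: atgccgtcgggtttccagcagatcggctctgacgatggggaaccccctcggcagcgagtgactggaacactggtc
Hk2: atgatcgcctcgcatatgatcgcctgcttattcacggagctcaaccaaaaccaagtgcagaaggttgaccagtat

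Of the stretches inside the coding sequence, 100% of those of Gapdh and 100% of those of Pgk1 were found unchanged in at least 1 other gene. The genes holding at least 1 such unchanged stretch numbered 121 for Gapdh, of which 112 are annotated as pseudogenes, and 4 for Pgk1, all pseudogenes. The lactate dehydrogenases followed, with 81.2% of the coding stretches of Ldhb and 69.0% of those of Ldha found within 2 mismatches but only 22.2% and 9.02% found unchanged. Aldoa had 30.3% within 2 mismatches and 1.86% unchanged, and Slc2a1 had 2.64% and 2.21%. No coding stretch of Slc2a4, Hk1, Hk2 or Pfkm was found elsewhere.

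The deposited gene models place the carriers at chr4:119108745-119137329 on the plus strand (Slc2a1) and chr11:69942286-69948190 on the minus strand (Slc2a4) of mm10. The hexokinases lie at chr10:62268855-62379908 on the minus strand (Hk1) and chr6:82725027-82774454 on the minus strand (Hk2). Pfkm lies at chr15:98092589-98132447 on the plus strand and Aldoa at chr7:126795234-126800447 on the minus strand. Gapdh lies at chr6:125161852-125165583 on the minus strand and Pgk1 at chrX:106187124-106203699 on the plus strand. The lactate dehydrogenases lie at chr7:46845804-46855627 on the plus strand (Ldha) and chr6:142490249-142507943 on the minus strand (Ldhb). No other gene overlaps any of the 10 on its own strand. On the opposite strand Hk1 overlaps 2210417K05Rik and Pfkm overlaps Senp1, and the counting used strand.

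RefSeq start regions (GRCm38.p6, 250 bases before to 50 after the start) were at hand for 9 of the 10 genes, all but Slc2a4. A single region stands for each gene, although Pfkm has 4 listed starts, Aldoa 3, and Hk1 and Ldha 2 each. The start used for Gapdh lies 190 bases from that of the deposited gene model. The letters ACGTG, the core of the hypoxia response element, were found on either strand in 6 of these 9 (Slc2a1, Hk2, Pfkm, Gapdh, Pgk1 and Ldha), against 19.6% of 32851 start regions of the same length. The match of Gapdh was not within the 250 bases before the start. The E-box CACGTG, which holds ACGTG, was found in 2 of the 9 (Pfkm and Ldha) against 7.15%. The letters CCAAT were found in 4 against 37.4%, and TATAAA in 1 against 13.6%. The 250 bases before the start are shown for Ldha (chr7:46845554-46845803, plus strand), which had the most matches, for Pgk1 (chrX:106186850-106187099, plus strand), and for Ldhb (chr6:142507958-142508207, minus strand), the paired subunit gene without a match. Capitals mark ACGTG or its reverse complement CACGT.
Ldha: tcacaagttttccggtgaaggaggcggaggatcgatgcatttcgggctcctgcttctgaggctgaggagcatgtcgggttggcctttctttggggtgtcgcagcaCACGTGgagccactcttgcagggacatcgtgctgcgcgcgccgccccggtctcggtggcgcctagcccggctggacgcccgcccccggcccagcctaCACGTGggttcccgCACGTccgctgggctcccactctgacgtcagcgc
Pgk1: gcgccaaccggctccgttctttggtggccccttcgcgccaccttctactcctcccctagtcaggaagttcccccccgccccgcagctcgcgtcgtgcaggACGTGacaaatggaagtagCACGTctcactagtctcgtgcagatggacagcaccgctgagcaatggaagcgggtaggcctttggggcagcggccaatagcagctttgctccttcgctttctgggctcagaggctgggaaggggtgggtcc
Ldhb: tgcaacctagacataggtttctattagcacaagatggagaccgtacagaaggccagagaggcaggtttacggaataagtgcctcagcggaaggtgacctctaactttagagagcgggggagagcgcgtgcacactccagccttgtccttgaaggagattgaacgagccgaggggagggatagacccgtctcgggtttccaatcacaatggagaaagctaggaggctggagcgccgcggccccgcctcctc

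In Ldha the 250 bases held 2 E-boxes and 5 matches of ACGTG over both strands, since each E-box gives a match on either strand. Pgk1 held 2 matches and Ldhb 0. These letters are a description of the sequence, and base composition was not taken into account.

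Total counts were 13246339 to 24155465 per heart, of which 3908354 to 7591558 fell on nuclear genes and 53.5 to 57.5% on the mitochondrial ribosomal RNA gene mt-Rnr2. Plcb1, the gene that both the PLCβ1b and the PLCβ1a vector carry, had a log2 fold change of 2.90 in PLCβ1b hearts (SE 0.25, FDR 8.24e-05 in edgeR) and 1.82 in PLCβ1a hearts (SE 0.26, FDR 0.0299). All 6 hearts of either group lay above all 6 blank hearts. Between PLCβ1b and PLCβ1a hearts the log2 fold change of Plcb1 was 1.09 (SE 0.22, FDR 0.801 in edgeR). It was not called there, although 5 of 6 PLCβ1b hearts lay above all PLCβ1a hearts. These groups thus differed in the level of Plcb1 as well as in the variant carried. Cardiomyocyte markers (Myh6, Tnnt2, Tnni3, Actc1, Ttn and Ryr2) summed to 47178 to 52909 CPM (counts scaled to the size of the library) over all hearts, with overlapping ranges in the 3 groups. The skeletal muscle genes Myh4, Myh1, Myh2, Actn3 and Tnnt3, the adipocyte genes Lep and Plin1 and the atrial gene Bmp10 were near 0. With Ckm, the skeletal muscle list summed to 531 to 575, 515 to 573 and 532 to 589 CPM in blank, PLCβ1a and PLCβ1b hearts. With Myl7, Myl4 and Sln, the atrial list summed to 14.5 to 19.6, 7.71 to 30.7 and 8.54 to 17.5 CPM in the same order. The adipocyte list, with Adipoq and Cidec, summed to at most 1.95 CPM. Over 9 lists of cell type markers no tested gene was called in any comparison, and the summed level of every list overlapped between groups. Tested genes numbered only 0 in the adipocyte list, 1 in the skeletal muscle list and 2 in the erythrocyte list. The erythrocyte list summed to 5.66 to 11.7 CPM in blank hearts (median 9.29), 9.85 to 18.7 in PLCβ1a hearts (median 14.5) and 6.58 to 14.5 in PLCβ1b hearts (median 11.7).

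The 10 genes spanned 220-fold in FPKM, a level per length of transcript in which genes can be set side by side. Aldoa, the muscle aldolase, was the highest, with a median of 425 FPKM over 18 hearts and a range of 395 to 481. Ldhb, the heart-type lactate dehydrogenase subunit, followed at 226 FPKM (203 to 244). Gapdh had a median of 144 FPKM (117 to 159) and Pfkm, the muscle phosphofructokinase, 127 FPKM (113 to 143). These neighbours were not separated, since their ranges overlapped and Gapdh was above Pfkm in 15 of 18 hearts.

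Ldha, the muscle-type subunit, had 77.4 FPKM (68.1 to 91.2), and Slc2a4, the insulin-responsive carrier, 50.02 FPKM (43.2 to 53.4). Hk2 at 33.5 FPKM (29.97 to 36.6) and Pgk1 at 31.8 FPKM (28.8 to 37.4) overlapped, with Hk2 the higher in 12 of 18 hearts. Hk1 had 15.2 FPKM (13.4 to 17.2). Slc2a1 was by far the lowest, at 1.93 FPKM (1.2 to 2.53). Apart from those overlapping pairs, each gene was above the next in all 18 hearts. The places of Gapdh and Pgk1 rest on FPKM alone. Their counts were far lower than their FPKM would give, as set out below.

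**Figure D1:**
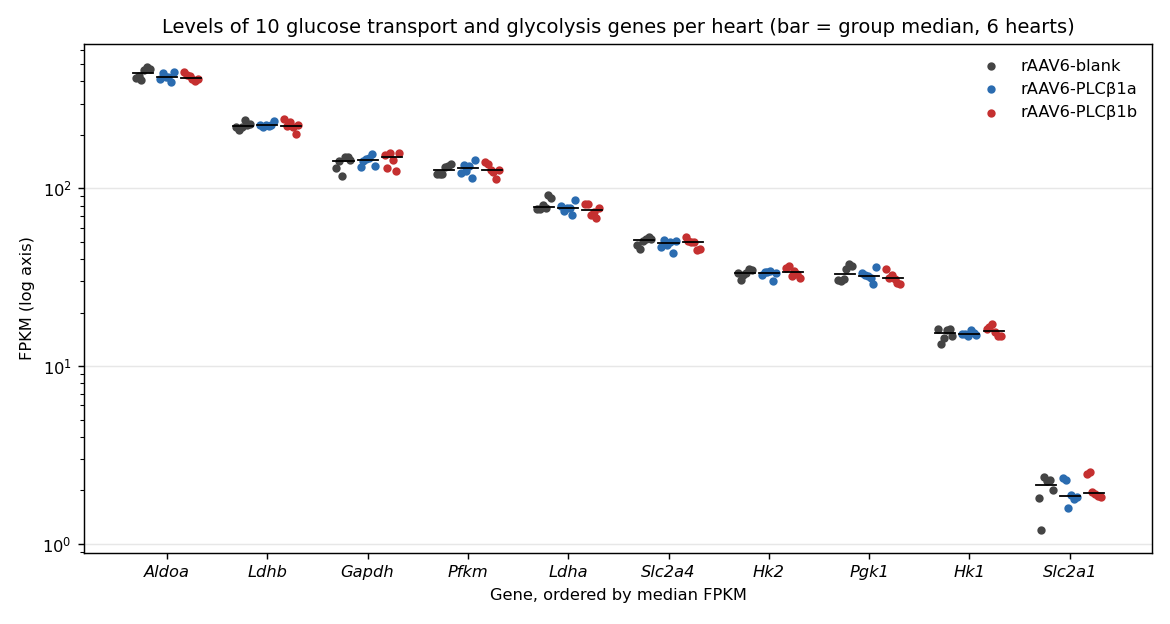
FPKM on a log axis for each of the 10 genes in each of 18 hearts (dots, coloured by vector) with the median of 6 hearts per group (bars), ordered by median over all hearts. The order runs from Aldoa at 425 FPKM to Slc2a1 at 1.93 FPKM, and the 3 groups overlap for every gene.

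At each step with several isoforms, the members carried most of the FPKM. Slc2a4 made up a median of 89.7% of the summed FPKM of Slc2a1, Slc2a3, Slc2a4, Slc2a8 and Slc2a12, while Slc2a1 made up 3.63%, similar to the 3.38% of the intracellular carrier Slc2a8. Hk2 took 63.8% of the hexokinase FPKM and Hk1 29.1%.

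Pfkm made up 88.6% of phosphofructokinase FPKM, with Pfkl at 7.91% and Pfkp at 3.46%. Aldoa made up 99.4% of aldolase FPKM. Ldhb made up 74.4% and Ldha 25.6% of lactate dehydrogenase FPKM, with ranges of 71.4 to 76.9% and 23.1 to 28.6% over the 18 hearts. The germ cell isoforms Gapdhs, Pgk2 and Ldhc were listed at 0 in all 18 hearts. The adult isoform thus exceeded its partner in every heart of every group at each of the carrier, hexokinase and lactate dehydrogenase steps.

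The count table and the FPKM table disagreed for Gapdh and Pgk1. Gapdh, among the highest by FPKM, had only 33 to 88 counts per heart, beside 46 to 117 for Slc2a1, whose FPKM was the lowest of all, and had fewer counts than Slc2a1 in 16 of 18 hearts. Pgk1 had 56 to 150 counts. The other 7 genes had from 658 counts (Hk1, in blank heart 32) to 11731 counts (Aldoa, in blank heart 36).

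To set the tables side by side, the count of each gene was divided by its FPKM and its exon length, and given as a percentage of the median of the same quotient over 3144 genes in that heart, each with a single annotated transcript of at least 1000 bases, at least 3 FPKM in every heart and a mean of at least 100 counts. By this measure Gapdh had a median of 2.02% (1.48 to 3.37% over hearts) and Pgk1 10.1% (9.07 to 12.4%). The remaining 8 genes lay between 76.2% for Aldoa and 103% for Ldhb. Of 5339 nuclear genes of at least 1000 bases whose FPKM averaged 3 or more, 60 (1.12%) fell under 20%. Among 88 genes of the glucose lists with at least 3 FPKM, 3 did: Gapdh, Pgk1 and the phosphoglycerate mutase Pgam1 (10.2%).

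Gapdh and Pgk1 are also the pair whose coding stretches were all found unchanged in other genes. How reads that align to several places entered either table is not given in the sources used here, and the part of shared sequence in the low counts was not tested. Among the other members, Ldhb, with 81.2% of coding stretches within 2 mismatches and 22.2% unchanged, stood at 103% by the measure above. Aldoa, with 30.3% within 2 mismatches and 1.86% unchanged, stood at 76.2%. The sequence of Pgam1 was not searched in this way. Across the 18 hearts, Pearson's r between log2 CPM and log2 FPKM was -0.07 for Gapdh and 0.26 for Pgk1. It was highest for Slc2a1 (r = 0.97) and ran from 0.47 (Ldhb) to 0.83 (Ldha) for the other members. Both scales are given for Gapdh and Pgk1.

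**Figure D2:**
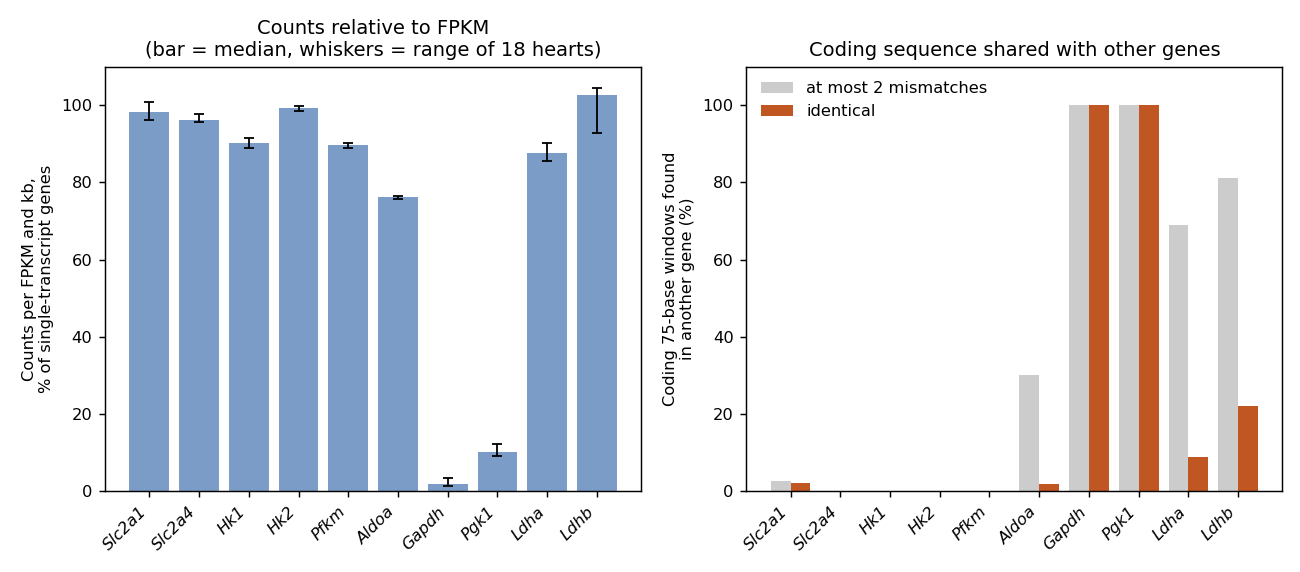
Left, counts per FPKM and kb of exon as a percentage of single-transcript genes, with the median (bars) and range (whiskers) of 18 hearts. Right, the percentage of 75-base coding stretches found in another gene within 2 mismatches (grey) or unchanged (orange). Gapdh (2.02%) and Pgk1 (10.1%) are low on the left and at 100% on the right.

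None of the 10 genes differed past the threshold with either vector. With edgeR's quasi-likelihood test, 0 of 10 were called at FDR below 0.1 between PLCβ1b and blank hearts, where 12 of 12281 genes (0.0977%) were called. Between PLCβ1a and blank hearts the count was 0 of 10 against 17 genes (0.138%), and between PLCβ1b and PLCβ1a hearts 0 of 10 against 0 genes (0.0%). At an unadjusted p below 0.05 there were again 0 of 10 in each comparison, where 7.41%, 8.58% and 4.42% of all genes passed. DESeq2 and limma on log2 FPKM also called 0 of 10 in each comparison, with 0 at an unadjusted p below 0.05.

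No gene of the 10 had groups whose CPM did not overlap, as 0.48%, 0.594% and 0.179% of all genes did in the same order of comparisons. Higher and lower values were balanced, with 5 higher and 5 lower in PLCβ1b hearts, 6 and 4 in PLCβ1a hearts, both against the same blank hearts, and 5 and 5 between the PLC groups. Taken without their sign, the log2 fold changes had a median of 0.040, 0.029 and 0.020 over the 10 genes, beside 0.071, 0.073 and 0.061 over all genes tested. All genes tested are not matched to the 10 in number of counts.

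For the 7 genes with more than 600 counts in every heart, the 95% intervals were narrow enough to bound the change. They lay within -9.99% to 13.2% in PLCβ1b hearts, -8.26% to 8.69% in PLCβ1a hearts, and -7.55% to 11.2% in PLCβ1b against PLCβ1a hearts. In simulated counts with known changes between PLCβ1b and blank hearts, over 12281 genes, the same test recovered 61.5% of 1.3-fold and 98% of 2-fold changes. The changed genes were drawn from all genes tested, with a spread taken from the trend over genes. These shares are therefore not specific to the members.

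**Figure D3:**
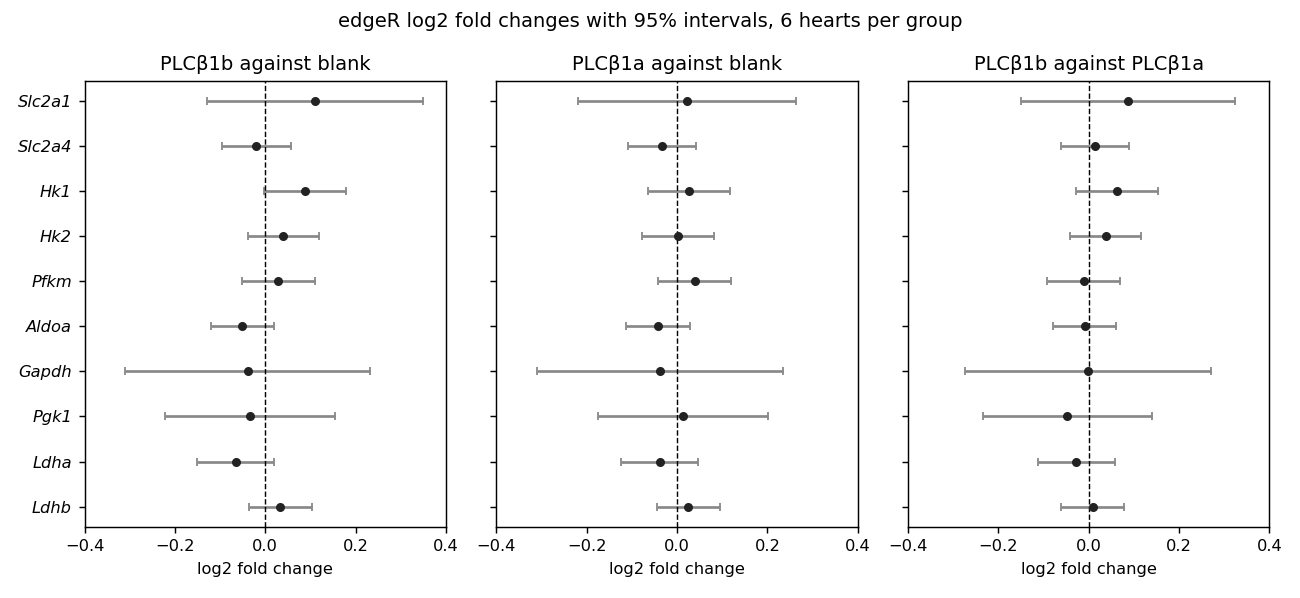
edgeR log2 fold changes (dots) with 95% intervals (lines) of the 10 genes in 3 comparisons of 6 against 6 hearts. Every interval includes 0, and those of Slc2a1, Gapdh and Pgk1, with the fewest counts, are the widest.

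Neither carrier passed the test. Slc2a4 lay at 110 to 118 CPM in blank hearts (median 114), 103 to 118 in PLCβ1a hearts (median 112) and 108 to 118 in PLCβ1b hearts (median 112). The ranges nearly coincided. Its log2 fold change was -0.020 in PLCβ1b hearts (SE 0.038, FDR 0.935 in edgeR) and -0.033 in PLCβ1a hearts (SE 0.038, FDR 0.852).

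Slc2a1 lay at 2.65 to 5.12 CPM in blank hearts (median 4.33), 3.53 to 4.95 in PLCβ1a hearts (median 4.03) and 4.0004 to 5.33 in PLCβ1b hearts (median 4.20). The lowest value of all belonged to blank heart 30, and the highest to PLCβ1b heart 6. Its log2 fold change of 0.11 in PLCβ1b hearts (SE 0.12, FDR 0.876 in edgeR) has a 95% interval from -8.58% to 27.3%, wider than for the other carrier. In PLCβ1a hearts it was 0.022 (SE 0.12, FDR 0.978). Without blank heart 30 these values were 0.013 and -0.074.

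Hk1, the hexokinase that predominates before birth, came nearest to the threshold. It lay at 48.1 to 57.1 CPM in blank hearts (median 50.9), 49.7 to 56.8 in PLCβ1a hearts (median 52.2) and 52.3 to 57.5 in PLCβ1b hearts (median 54.3). PLCβ1b hearts filled the upper part of the blank range, with only 1 of 6 above all blank hearts. Against blank this gave 0.088 on the log2 scale in PLCβ1b hearts (SE 0.045, unadjusted p = 0.0563, FDR 0.686 in edgeR), that is 6.29% higher with a 95% interval from -0.173% to 13.2%.

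The unadjusted p of Hk1 in edgeR fell to 0.0112 without blank heart 26, the highest blank heart, and was under 0.05 in 7 of 29 settings, with an FDR never under 0.505. In PLCβ1a hearts its log2 fold change was 0.026 (SE 0.045, FDR 0.917 in edgeR). Hk2, the insulin-regulated adult hexokinase, lay at 146 to 159 CPM in blank hearts (median 153), 143 to 159 in PLCβ1a hearts (median 154) and 145 to 168 in PLCβ1b hearts (median 157). PLCβ1b hearts reached higher, with 3 of 6 above all blank hearts and 1 below them. The log2 fold change was 0.040 (SE 0.039, FDR 0.860 in edgeR) in PLCβ1b hearts and 0.0030 (SE 0.039, FDR 0.992) in PLCβ1a hearts.

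None of the middle enzymes of glycolysis passed the test either. Pfkm, the rate-limiting step, lay at 287 to 299.6 CPM in blank hearts (median 288), 268 to 319.7 in PLCβ1a hearts (median 299.99) and 271 to 315 in PLCβ1b hearts (median 299.3). The blank hearts were tightly packed and both PLC groups extended beyond them on either side. The log2 fold changes were 0.028 (SE 0.040, FDR 0.913 in edgeR) and 0.039 (SE 0.040, FDR 0.830) in PLCβ1b and PLCβ1a hearts.

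Aldoa lay at 485 to 527 CPM in blank hearts (median 520.3), 463 to 521 in PLCβ1a hearts (median 509) and 487 to 505 in PLCβ1b hearts (median 497). PLCβ1b hearts sat in the lower part of the blank range and none left it. PLCβ1b hearts had a log2 fold change of -0.051 (SE 0.035, FDR 0.794 in edgeR), with a 95% interval from -8.04% to 1.32%. In PLCβ1a hearts it was -0.042 (SE 0.035, FDR 0.774).

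Gapdh, often used as a reference gene, lay at 117 to 149.98 FPKM in blank hearts (median 143), 132 to 157 in PLCβ1a hearts (median 144) and 125 to 159 in PLCβ1b hearts (median 149.7). In CPM, from few reads, it lay at 2.61 to 3.79, 2.14 to 4.52 and 2.80 to 3.44 in the same order of groups. The groups overlapped on both scales. The log2 fold change of PLCβ1b hearts was -0.039 in edgeR on counts (SE 0.13, FDR 0.967) and 0.063 in limma on log2(FPKM + 0.1), so its sign depended on the table.

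Pgk1, the first ATP-yielding step, lay at 30.3 to 37.4 FPKM in blank hearts (median 33.1), 28.8 to 35.999 in PLCβ1a hearts (median 32.3) and 28.8 to 35.1 in PLCβ1b hearts (median 31.1). Its CPM were 4.33 to 5.96, 4.48 to 6.04 and 4.46 to 5.55. On neither scale did the groups part. The log2 fold change on counts was -0.034 in PLCβ1b hearts (SE 0.093, FDR 0.956 in edgeR) and 0.013 in PLCβ1a hearts (SE 0.093, FDR 0.983), and in FPKM that of PLCβ1a hearts was -0.050.

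On counts the lactate dehydrogenase subunits had fold changes of opposite sign, and neither passed the test. Ldha lay at 105 to 121 CPM in blank hearts (median 114), 107 to 119.9 in PLCβ1a hearts (median 109.7) and 98.3 to 115 in PLCβ1b hearts (median 111). PLCβ1b hearts reached lower, with 2 of 6 below all blank hearts. Against blank it had a log2 fold change of -0.066 (SE 0.042, FDR 0.781 in edgeR), with a 95% interval from -9.99% to 1.39%, in PLCβ1b hearts and -0.039 (SE 0.042, FDR 0.847) in PLCβ1a hearts. Without blank heart 33 the value of PLCβ1b hearts was -0.089, with an unadjusted p of 0.0477 in edgeR (FDR 0.721).

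Ldhb lay at 238 to 256 CPM in blank hearts (median 248), 244 to 259 in PLCβ1a hearts (median 252) and 238 to 264 in PLCβ1b hearts (median 256). PLCβ1b hearts reached higher, with 4 of 6 above all blank hearts. Hearts 4 and 10 were so only narrowly, at 256.21 and 256.17 CPM against 256.14 in the highest blank heart. In PLCβ1b hearts Ldhb had a log2 fold change of 0.034 (SE 0.034, FDR 0.870 in edgeR), and 0.025 (SE 0.034, FDR 0.885) in PLCβ1a hearts. In limma on log2(FPKM + 0.1) the value of PLCβ1b hearts was -0.0024, so its sign depended on the table. Set directly against PLCβ1a hearts, PLCβ1b hearts had log2 fold changes from -0.047 (Pgk1) to 0.088 (Slc2a1), with an FDR of 0.99994 for each in edgeR.

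A move towards the foetal isoforms would raise the ratio of Slc2a1 to Slc2a4, of Hk1 to Hk2 and of Ldha to Ldhb within a heart, whatever the depth of the library. The count ratio of Slc2a1 to Slc2a4 was 0.0242 to 0.0433 in blank hearts (median 0.0379), 0.0312 to 0.0457 in PLCβ1a hearts (median 0.0364) and 0.0360 to 0.0469 in PLCβ1b hearts (median 0.0375). Blank heart 30 alone lay under 0.03. The log2 difference was 0.14 in PLCβ1b hearts, by the exact two-sided permutation test p = 0.377, and 0.065 in PLCβ1a hearts, p = 0.693. With blank heart 30 left out the differences were 0.029 and -0.047.

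The ratio of Hk1 to Hk2 was 0.316 to 0.359 in blank hearts (median 0.334), 0.325 to 0.374 in PLCβ1a hearts (median 0.3397) and 0.332 to 0.396 in PLCβ1b hearts (median 0.341). The medians were nearly equal. The log2 difference was 0.049 in PLCβ1b hearts (exact permutation p = 0.361) and 0.025 in PLCβ1a hearts (exact permutation p = 0.561).

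The ratio of Ldha to Ldhb was 0.4098 to 0.508 in blank hearts (median 0.461), 0.423 to 0.465 in PLCβ1a hearts (median 0.438) and 0.382 to 0.4599 in PLCβ1b hearts (median 0.432). Both PLC groups had lower medians than blank hearts, whereas a foetal direction would be upwards. The log2 difference was -0.099 in PLCβ1b hearts (exact permutation p = 0.121) and -0.063 in PLCβ1a hearts (exact permutation p = 0.234). With single hearts left out, the difference of PLCβ1b hearts ran from -0.13 to -0.066. Its unadjusted exact permutation p was then 0.0346 at the lowest. Over 9 tests, with the 3 contrasts of each ratio, the lowest Benjamini-Hochberg adjusted p by the exact permutation test was 0.693, while 6 against 6 hearts allow p = 0.00216 at best, and the PLC groups share their blank hearts.

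**Figure D4:**
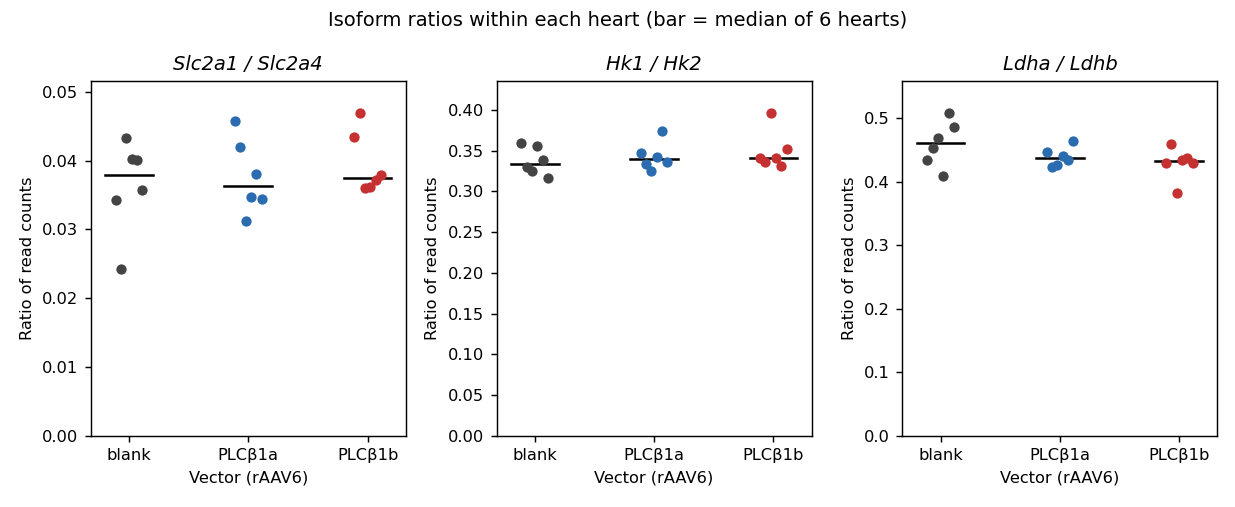
Count ratios of Slc2a1 to Slc2a4, Hk1 to Hk2 and Ldha to Ldhb in each heart (dots) by vector, with the median of 6 hearts (bars) and axes from 0. The groups overlap in every panel, and PLCβ1b hearts have medians of 0.0375, 0.341 and 0.432.

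Within the groups most members varied little from heart to heart. The standard deviation of log2 CPM about the group means was 0.042 for Ldhb, 0.047 for Aldoa, 0.051 for Slc2a4, 0.063 for Hk2, 0.0699 for Pfkm, 0.073 for Hk1 and 0.074 for Ldha, against a median of 0.16 over all genes tested. It was 0.15 for Pgk1, 0.23 for Slc2a1 and 0.24 for Gapdh, the genes with the fewest counts. The median over all genes is not matched for depth. Of the 12281 genes tested, 1856 had a mean of at least 500 counts, as the deeply counted members do. The members were not set beside the spread of those 1856 genes. In FPKM the coefficient of variation of Gapdh over 18 hearts was 8.43%, beside 4.31% for Ldhb and 17.1% for Slc2a1.

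How far the genes moved together depended on the scale. After group means were taken out, the 7 deeply counted genes gave 21 pairs, of which 17 had a positive Pearson's r in log2 CPM, with a median of 0.26 and a range of -0.37 to 0.63. Among 1856 genes with a mean of at least 500 counts, the median r was 0.027 and 53.1% of pairs were positive. Pfkm had the highest values, with r = 0.63 to Slc2a4, 0.63 to Aldoa and 0.52 to Ldha, and Slc2a4 had r = 0.60 to Hk2. Hk1 and Ldha went apart, with r = -0.37. All points are the same 18 hearts, and genes of a heart share its library and depth.

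In log2 FPKM the median over the same 21 pairs was 0.61. The correlation of log2 FPKM with the log2 nuclear counts of a heart was above 0 for 10 of 10 genes over 18 hearts, from r = 0.17 for Hk1 (Spearman's rho 0.30) and 0.30 for Gapdh (rho 0.24) to 0.67 for Aldoa (rho 0.69) and 0.70 for Pgk1 (rho 0.81). In log2 CPM it was below 0 for 4 of 10, and ran from r = -0.40 for Hk1 (rho -0.32) and -0.33 for Hk2 (rho -0.36) to 0.42 for Pgk1 (rho 0.41). Neither these correlations with depth nor the likeness in FPKM were set beside all genes. Blank hearts 26 and 32 and PLCβ1a heart 14 had the fewest nuclear counts. Their highest FPKM, 94639 to 96893, was that of the mitochondrial gene mt-Rnr1. In the other hearts the highest FPKM, of mt-Co3 or mt-Co1, was 40006 to 47484. The part of depth, or of this difference between hearts, in the likeness of FPKM was not tested.

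**Figure D5:**
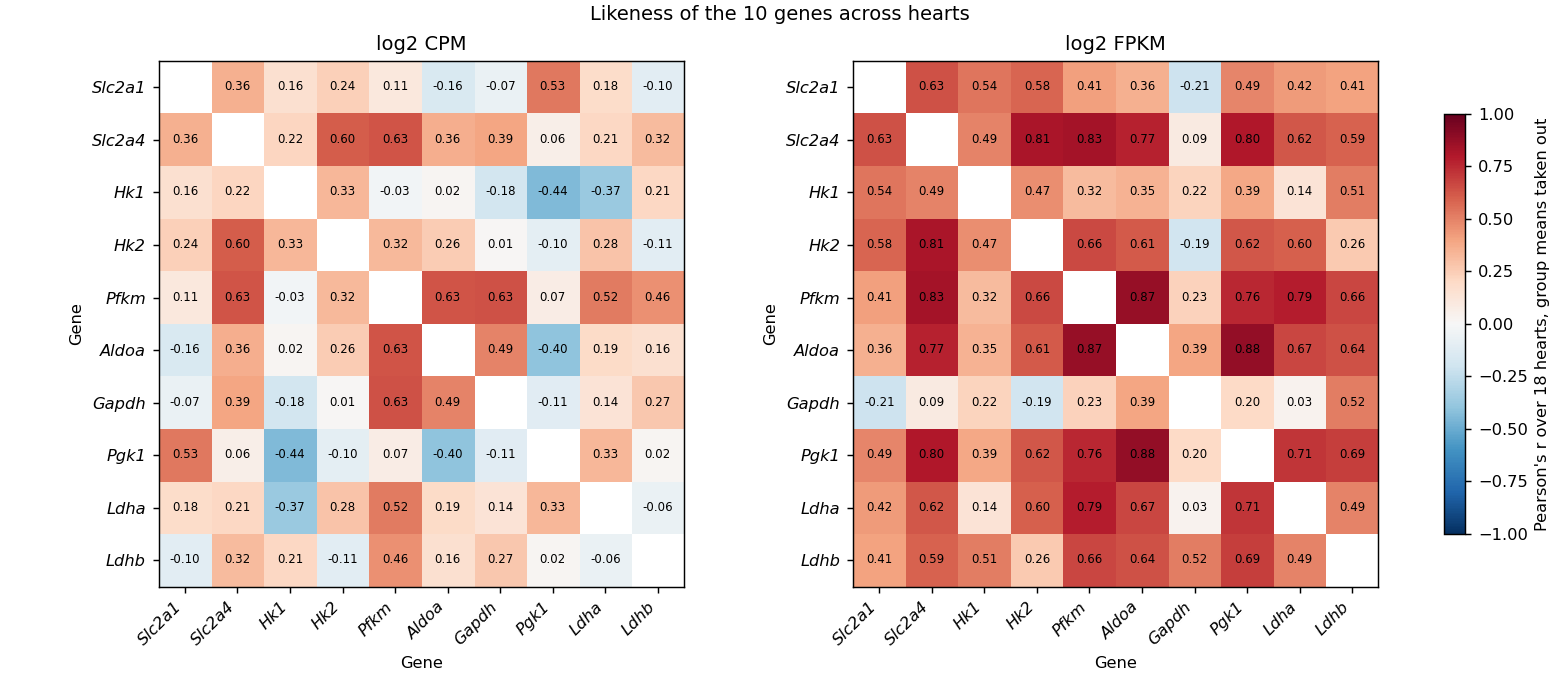
Pearson's r between each pair of the 10 genes over 18 hearts after group means were taken out, in log2 CPM (left) and log2 FPKM (right), with the colour scale running from -1 to 1. The median over 21 pairs of deeply counted genes is 0.26 on the left and 0.61 on the right.

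Among all 12281 genes tested, the gene most like each member across the 18 hearts was found in the same way. The nearest gene of Pfkm was Tmem182, a muscle membrane protein gene (r = 0.87, rho 0.88). That of Hk2 was Kcnj11 (r = 0.83, rho 0.82), which encodes the pore of the ATP-sensitive potassium channel. Pgk1 had the closest partner, Zfp523 (r = 0.96, rho 0.96), a zinc finger gene on another chromosome. The others were A730020M07Rik for Slc2a1 (r = 0.86), Apc2 for Slc2a4 (r = 0.84), Gm13154 for Hk1 (r = 0.83), Hp1bp3 for Aldoa (r = 0.79), Tubgcp3 for Gapdh (r = 0.81), Wdr36 for Ldha (r = 0.83) and Bbs4 for Ldhb (r = 0.84). Each is the highest of many correlations and is given as a description.

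Outside the 10 genes, 8 lists covered the rest of the pathway, with 132 genes in all, of which 114 were tested. They hold the other glycolytic enzymes, the other glucose and lactate carriers, the control of phosphofructokinase by PFK-2, pyruvate entry into mitochondria, glycogen metabolism, glucose side pathways, hypoxia and glucose responsive genes, and GLUT4 traffic and expression. None was called at FDR below 0.1 by edgeR in any of the 3 comparisons, nor by DESeq2 or limma. At an unadjusted p below 0.05, edgeR had 6 higher and 5 lower in PLCβ1b hearts (9.65%, beside 7.41% of all genes), 8 higher and 9 lower in PLCβ1a hearts (14.9%, beside 8.58%) and 4 higher and 5 lower between PLCβ1b and PLCβ1a hearts (7.89%, beside 4.42%). The median log2 fold changes of the 114 were -0.0052, -0.019 and 0.0089, beside -0.0009, -0.0018 and 0.0009 over all genes.

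The gene of these lists with the lowest unadjusted p in PLCβ1b hearts was Klf15, a transcription factor that promotes Slc2a4 expression. It lay at 17.3 to 21.7 CPM in blank hearts, 14.2 to 19.9 in PLCβ1a hearts and 14.5 to 20.5 in PLCβ1b hearts. Of the PLCβ1b hearts, 5 of 6 lay under the lowest blank heart. Its log2 fold change was -0.28 in PLCβ1b hearts (SE 0.081, FDR 0.297 in edgeR) and -0.22 in PLCβ1a hearts (SE 0.081, FDR 0.380), against the same blank hearts. Without PLCβ1b heart 16 it was called in PLCβ1b hearts, at -0.35 with an FDR of 0.0350 in edgeR. Slc2a4 itself had log2 fold changes of -0.020 and -0.033 against blank.

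Tbc1d4, the Rab regulator that holds GLUT4 inside the cell, lay at 55.1 to 67.28 CPM in blank hearts, 67.33 to 72.5 in PLCβ1a hearts and 59.0 to 69.2 in PLCβ1b hearts. All 6 PLCβ1a hearts were above all blank hearts by a narrow margin. Between these groups, 73 of the 12281 genes tested (0.594%) had CPM that did not overlap. Tbc1d4 was picked as the gene with the lowest unadjusted p of its list in PLCβ1a hearts. The log2 fold change was 0.14 in PLCβ1a hearts (SE 0.045, FDR 0.293 in edgeR) and 0.014 in PLCβ1b hearts (SE 0.046, FDR 0.963).

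Hif1a, the oxygen-regulated factor that activates many glycolytic genes, had a log2 fold change of 0.16 in PLCβ1b hearts (SE 0.057, FDR 0.459 in edgeR) and 0.13 in PLCβ1a hearts (SE 0.057, FDR 0.490). Egln1, the prolyl hydroxylase that marks HIF-1α for degradation, had -0.078 (SE 0.043, FDR 0.726) and -0.14 (SE 0.043, FDR 0.277). Neither passed the test. Their directions in PLCβ1b and PLCβ1a hearts were read against the same 6 blank hearts.

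Among the other carriers, Slc2a13, the proton myo-inositol carrier, stood at a log2 fold change of 0.73 for PLCβ1a against blank hearts (SE 0.29, FDR 0.437 in edgeR) from 5 to 19 counts. Slc16a7, the pyruvate and lactate carrier MCT2, had -0.34 in PLCβ1b hearts (SE 0.14, FDR 0.583 in edgeR).

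In glycogen metabolism the lowest unadjusted p values belonged to Ppp1r3a, the muscle glycogen-targeting subunit of protein phosphatase 1, with a log2 fold change of -0.14 in PLCβ1b hearts (SE 0.056, FDR 0.592 in edgeR), and Ugp2, which makes UDP-glucose, with -0.20 in PLCβ1a hearts (SE 0.084, FDR 0.513). At the pyruvate dehydrogenase step they were Pdk2, an inhibitory kinase, at 0.078 in PLCβ1b hearts (SE 0.043, FDR 0.726 in edgeR) and Pdp2, the opposing phosphatase, at 0.19 in PLCβ1a hearts (SE 0.079, FDR 0.482). Among the enzymes that set the sugar bisphosphate that activates phosphofructokinase, they were Pfkfb3 at 0.16 in PLCβ1b hearts (SE 0.12, FDR 0.813 in edgeR) and Pfkfb2 at -0.21 in PLCβ1a hearts (SE 0.11, FDR 0.641). In the side pathways they were Gnpnat1 of hexosamine synthesis at -0.38 in PLCβ1b hearts (SE 0.14, FDR 0.542 in edgeR) and Pgd of the pentose phosphate pathway at -0.17 in PLCβ1a hearts (SE 0.089, FDR 0.616). The genes named here had the lowest p of their lists, and none of them passed the test.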

How the data were processed

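Ribosomal RNA-depleted total RNA of 18 mouse hearts was sequenced by the authors as strand-specific paired reads, aligned with TopHat to mm10 and counted on genes with HTSeq in union mode using strand. The deposited values are raw counts and, for the same hearts, FPKM. The submitters' processing notes also list TopHat2 2.0.10 and Cufflinks 2.1 without saying which made the FPKM, and how reads aligning to several places were treated is not given in the sources used here. Gene names came from the tables; mitochondrial genes, which the count table lists by identifier, were named from the deposited annotation (37 genes).

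Counts were scaled by TMM and tested in a single model of the 3 groups with edgeR 4.0.16 (R 4.3.3), quasi-likelihood F test with robust spread, after filterByExpr (minimum count 10, minimum total 15). P-values were adjusted by Benjamini-Hochberg over all genes tested, with a call at FDR below 0.1. SE is the log2 fold change divided by the square root of F. CPM used TMM-scaled totals including mitochondrial counts and log2 CPM had 2 counts added first. Isoform ratios were compared by exact permutation over 924 arrangements. P-values measure the spread between mice, each heart being a separate biological replicate. The labels give no batch. Alternatives used DESeq2 1.42.0, limma 3.58.1 on log2(FPKM + 0.1) and log2(FPKM + 1), and Python 3.11.15 with pandas 2.3.3, numpy 2.4.6, scipy 1.17.1 and matplotlib 3.10.9. Test programs were tested on simulated data. Intervals are 95% intervals of the fit. Named genes are the 10 members, the gene most like each, the isoforms of each step, genes of the lists that were called, the gene with the lowest p of each list against blank in each PLC group, and Plcb1, except that some of these are not reported here. The members and lists were chosen with earlier results of these data known.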

Additional observations from a re-analysis of the deposited data

Results flagged for a closer look

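In 60 groups (10 genes, 3 groups, CPM and FPKM), Dixon's test at the 95% level marked 3 in which a single heart stood apart from the other 5, where chance marks about 1 in 20. Pfkm in blank heart 36 was at 299.6 CPM, above the next blank heart at 289.6 CPM. Ldha in PLCβ1a heart 21 was at 119.9 CPM, above the next PLCβ1a heart at 110.5 CPM. Ldhb in the same PLCβ1a heart 21 was at 238 FPKM, above the next at 228 FPKM. No call of these genes depended on either heart.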

How the results depend on the processing

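None of the 10 genes was called in any comparison under any of 29 settings, nor at an FDR below 0.05 or with Gapdh and Pgk1 left out. The last choice and the fit without robust spread were chosen after seeing the data. Of 30 log2 fold changes, 16 kept their sign throughout and 14, all of at most 0.047 in size, did not; the cause was not tested. In limma on log2(FPKM + 0.1) and log2(FPKM + 1), signs turned to -0.0043 and -0.0080 (Slc2a1), -0.017 and -0.017 (Hk2), 0.048 and 0.047 (Gapdh) and -0.050 and -0.049 (Pgk1) in PLCβ1a hearts, to 0.063 and 0.062 (Gapdh) and -0.0024 and -0.0023 (Ldhb) in PLCβ1b hearts, and to 0.0153 and 0.0152 (Gapdh) and -0.0132 and -0.0131 (Ldhb) in PLCβ1b against PLCβ1a hearts. Hk2 in PLCβ1a hearts was -0.0015 without the filter on low counts, and Gapdh in PLCβ1b against PLCβ1a hearts was 0.0002 with upper-quartile scaling.

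With each heart left out in turn, signs also turned within these ranges. In PLCβ1b hearts they were -0.080 to 0.023 (Gapdh) and -0.072 to 0.0010 (Pgk1). In PLCβ1a hearts they were -0.18 to 0.072 (Gapdh), -0.0095 to 0.021 (Hk2), -0.045 to 0.049 (Pgk1) and -0.075 to 0.077 (Slc2a1). In PLCβ1b against PLCβ1a hearts they were -0.030 to 0.0036 (Aldoa), -0.11 to 0.14 (Gapdh), -0.044 to 0.0003 (Ldha), -0.0037 to 0.024 (Ldhb), -0.041 to 0.011 (Pfkm), -0.077 to 0.010 (Pgk1) and -0.0083 to 0.031 (Slc2a4). The log2 ratio differences ran from -0.0003 to 0.043 (Hk1/Hk2, PLCβ1a), -0.012 to 0.049 (Hk1/Hk2, PLCβ1b against PLCβ1a) and -0.047 to 0.12 (Slc2a1/Slc2a4, PLCβ1a), and none of the 9 passed with FPKM ratios, 2 added to each count or any heart left out. Calls among the other pathway genes ran from 0 to 1 in PLCβ1b hearts (1 without blank heart 30, and Klf15 without PLCβ1b heart 16) and from 0 to 1 in PLCβ1a hearts (1 without blank heart 30). No paired analysis was possible because the groups share no mouse numbers. Depth limits Slc2a1, Gapdh and Pgk1, with at most 150 counts per heart.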

Other observations

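Pgk1 and Zfp523 lie on different chromosomes, X and 17, and their counts followed each other across the 18 hearts, with 56 to 150 counts for Pgk1 and 36 to 114 for Zfp523. Their FPKM, 28.8 to 37.4 and 1.08 to 2.01, did so less, with r = 0.44 after group means were taken out against r = 0.96 in log2 CPM, where it was 0.82 with group means left in.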
